A study of Schizosaccharomyces pombe with 4 samples.

Results

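Box C/D and box H/ACA small nucleolar ribonucleoproteins (snoRNPs) each carry a small set of core proteins, and the mRNAs of 7 of these proteins were followed in fission yeast, Schizosaccharomyces pombe. The members were chosen by name, by their systematic identifiers, and are 7 of the 6807 genes measured. They are fib1 (SPBC2D10.10c), nop56 (SPBC646.10c), nop58 (SPAC23G3.06) and snu13 (SPAC607.03c) of the box C/D particle, and cbf5 (SPAC29A4.04c), gar1 (SPBC20F10.01) and nhp2 (SPAC1782.10c) of the box H/ACA particle. The wild-type strain had the genotype h- ura4-D18 leu1-32. The deletion strain, also h-, carried int6::kanMX6 together with ura4-D18 and leu1-32, so that int6 (also eif3e or yin6), which encodes a subunit of translation initiation factor eIF3, was disrupted by a drug resistance cassette. Both strains therefore share the mating type and the uracil and leucine marker alleles, and both were harvested between OD 0.8 and 1.0 from YES, a rich yeast extract medium. There were 2 libraries of rRNA-depleted total RNA for each of the 2 strains, and the comparison asks which mRNA levels differ between them. Nothing in the labels says whether the libraries came from separate cultures or clones, so p-values measure only the spread between these libraries, which may be technical.

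snoRNPs modify and process ribosomal RNA in the nucleolus. In a box C/D particle the guide RNA is bound by Snu13, on which Nop56 and Nop58 assemble as a pair, and fibrillarin (fib1) methylates the ribose that the guide selects. In a box H/ACA particle Cbf5 turns the selected uridine into pseudouridine, with Gar1, Nhp2 and Nop10 as partners. Snu13 also binds U4 RNA in the spliceosome. The levels of these mRNAs are known to follow the demand for ribosomes together with other ribosome biogenesis genes.

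Assigned reads per library ran from 9926548 to 28254322, of which protein-coding genes took 10.3% to 17.4%. int6 itself had 504 reads in wild-type replicate 1 and 194 in replicate 2, while the deletion libraries had 1 and 10. Levels are given in CPM, counts scaled to each library's TMM-normalized size. Of the markers of the M mating type, which h- denotes, mfm2 measured 7.14 and 12.1 CPM in wild type, with deletion values of 10.2 and 15.1. mam1 measured 4.37 and 4.72 CPM in wild type, with deletion values of 9.24 and 4.21. mam2 measured 3.94 and 3.42 CPM in wild type, with deletion values of 2.11 and 2.27. mam3 and sxa2 were at 1.18 CPM or below in each library. The pheromone genes mfm1 and mfm3 were at 0 reads in 3 of the 4 libraries and in deletion replicate 2 respectively. Of the P-type markers, map4 measured 3.16 and 5.89 CPM in wild type, with deletion values of 6.13 and 8.25. map3 measured 1.77 and 1.06 CPM in wild type, with deletion values of 0.713 and 2.53. map2 had 8 and 12 reads in wild type against 5 and 2 in the deletion. Whether these low mating-gene levels bear on the snoRNP genes was not tested.

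The 7 genes fall into related and unrelated proteins. RefSeq's coding sequences gave proteins of 497 residues for Nop56 and 508 for Nop58, which shared 216 identical residues in a global alignment, 43.5% of the shorter protein. Snu13, of 125 residues, and Nhp2, of 154, are the RNA-binding relatives of the L7Ae family in their respective particles. They shared 37 identical residues, 29.6% of the shorter one. By the same measure Nop58 and Cbf5 shared 24.5%, and Nop56 and Snu13 24.0%, so this share alone does not mark a relation. The alignment score was 196 for Snu13 with Nhp2, against 41 and 7 for those 2 pairs and 958 for Nop56 with Nop58. Fibrillarin, of 305 residues, and Gar1, of 194, carry arginine- and glycine-rich stretches. The tripeptide RGG occurred 14 times in fibrillarin and 15 times in Gar1, and 0 times in the other 5 proteins. Cbf5, of 474 residues, was the third-longest protein after Nop58 and Nop56.

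The DNA before the genes is shown for 3 of them, because nop56 is the neighbour of the disrupted gene and one of 2 members with a long terminal repeat (LTR), a retrotransposon remnant, close upstream, gar1 is the other, and nop58 encodes the relative of Nop56. Each sequence is taken from the 250 bases before RefSeq's gene start in assembly ASM294v3, without bases that the deposited annotation already counts as transcript, and is written 5′ to 3′ on the gene's strand, with bases that RefSeq places inside an LTR in capitals. The windows are chr2:942435-942623 on the minus strand for nop56, chr2:3283087-3283336 on the plus strand for gar1 and chr1:876638-876861 on the plus strand for nop58.
nop56: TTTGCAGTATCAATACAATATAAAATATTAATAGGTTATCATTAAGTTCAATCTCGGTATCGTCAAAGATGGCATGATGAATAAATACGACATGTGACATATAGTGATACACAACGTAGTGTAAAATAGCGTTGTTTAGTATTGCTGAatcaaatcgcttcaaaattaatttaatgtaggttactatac
gar1: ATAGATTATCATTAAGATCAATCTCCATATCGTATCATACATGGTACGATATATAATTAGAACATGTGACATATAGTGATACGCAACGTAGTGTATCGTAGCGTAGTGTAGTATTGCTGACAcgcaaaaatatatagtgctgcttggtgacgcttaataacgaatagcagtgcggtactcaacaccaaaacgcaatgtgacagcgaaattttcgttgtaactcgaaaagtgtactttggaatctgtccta
nop58: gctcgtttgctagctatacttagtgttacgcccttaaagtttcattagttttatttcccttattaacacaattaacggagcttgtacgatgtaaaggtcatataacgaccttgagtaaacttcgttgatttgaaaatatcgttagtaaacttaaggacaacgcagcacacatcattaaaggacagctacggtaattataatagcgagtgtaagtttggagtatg

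The LTR ended 102 bases before RefSeq's start of nop56 and 128 bases before that of gar1, and filled 148 and 122 of the bases shown. Their longest shared run was ACATGTGACATATAGTGATAC, 21 bases long. In windows from 250 bases before to 50 bases after the start, 2 of the 7 genes overlapped an LTR, against 2.84% of 5112 protein-coding genes. The HomolD box (CAGTCACA) and a 9-letter form of the HomolE box (CCCTACCCT), promoter elements known from S. pombe ribosomal protein genes, were searched on both strands of the same windows. Neither set of letters occurred in any of the 7 windows, against 2.68% and 1.53% of all windows. Only exact letters were searched, so near forms of either box would be missed. At such low shares, absence from 7 windows tells little about these genes.

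None of the 7 strain differences passed edgeR's test, and the log2 changes ran from −0.47 for nop56 to 0.07 for fib1. Of the 7 genes, 4 had both deletion libraries below both wild-type libraries, and these were nop56, nop58, cbf5 and nhp2. The libraries of the strains overlapped for fib1, snu13 and gar1. Over all 5915 features tested the same non-overlap occurred downward in 21.4% and upward in 20.1%. These counts use TMM-normalized CPM. In the deposited RPKM, to which no TMM factor was applied, the strains overlapped for nop56, nop58 and nhp2 as well. For cbf5 they stayed apart, at 23.345 in wild-type replicate 2 against 23.333 in deletion replicate 1. edgeR's quasi-likelihood test at a Benjamini-Hochberg adjusted p under 0.05 called 0 of the 7, with adjusted p from 0.671 to 0.977, and the background of called features was 0.0169% higher and 0% lower. At an unadjusted p under 0.05 edgeR counted 0 of the 7 as lower, against 5.31% of all features, and DESeq2 and limma-voom also called 0. The median log2 change of the 7 was −0.29, beside 0.00 over all tested features and 0.04 over protein-coding ones.

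nop56 and nop58 encode the paired scaffold proteins of the box C/D particle, and both were highest in wild-type replicate 1. nop56 (chromosome 2, positions 940703 to 942434 in the deposited table, minus strand) measured 225 and 143 CPM in wild-type replicates 1 and 2, with deletion values of 141 and 124 CPM in the same order. Its second wild-type library thus lay just above the first deletion library, and the spread within wild type was wider than the gap between the strains there. The log2 change was −0.47 with a standard error of 0.31 and a 95% interval from −1.20 to 0.26 (edgeR adjusted p = 0.671). Without wild-type replicate 1 it was −0.11, and without wild-type replicate 2 it was −0.76. nop58 (chromosome 1, positions 876862 to 878930, plus strand) measured 181 and 147 CPM in wild type, with deletion values of 126 and 122. Its deletion libraries lay close together below both wild-type ones. Its log2 change was −0.40 with a standard error of 0.26 and an interval from −1.02 to 0.21 (edgeR adjusted p = 0.671), and with 1 library left out it ran from −0.54 to −0.25. The change without wild-type replicate 1 was −0.25 for nop58.

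nop56 is also the nearest gene upstream of int6. Both genes are read from the minus strand, nop56 first, with 336 bases between the 3′ end of nop56 and the 5′ end of int6 in the deposited annotation. On the other side oss1 (SPBC646.08c) follows after 419 bases on the same strand. oss1 measured 10.04 and 8.02 CPM in wild type, with deletion values of 10.7 and 12.0, a log2 change of 0.32 (edgeR adjusted p = 0.767), with both deletion libraries above both wild-type ones. int6 stood at 21.8 and 22.9 CPM in wild type, with deletion values of 0.0285 and 0.842 that rest on 1 and 10 reads, and its fitted log2 change was −6.23 (edgeR adjusted p = 0.111). The 95% Poisson intervals of those reads are 0.0253 to 5.57 and 4.80 to 18.4, and cover counting error only. Whether the cassette beside nop56 bears on its level was not tested.

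**Figure D1:**
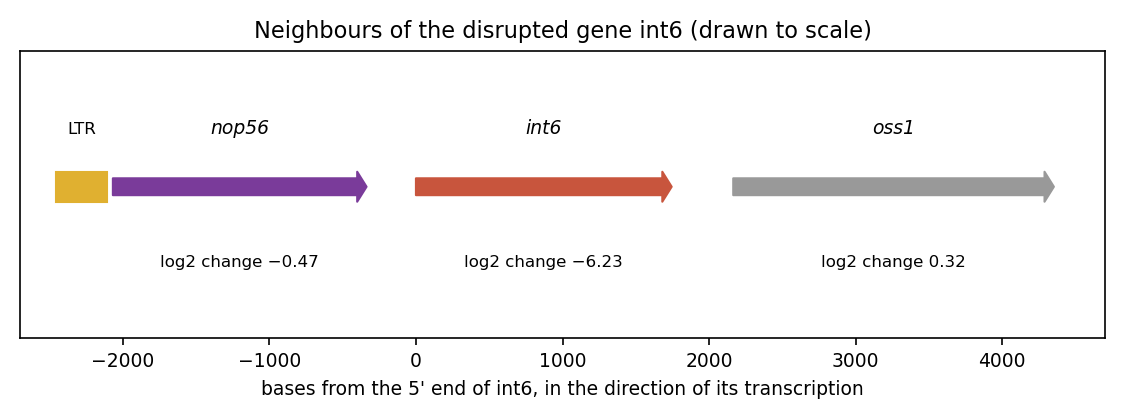
The disrupted gene int6 and its nearest neighbours, drawn to scale as arrows along the direction of transcription, with distance in bases from the 5′ end of int6 and edgeR's log2 change under each gene. nop56 ends 336 bases before int6 begins, and the LTR (yellow) lies before the start of nop56.

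fib1 and snu13, the catalytic and the RNA-binding protein of box C/D particles, showed overlapping strains. fib1 (chromosome 2, positions 2982427 to 2983735, minus strand) measured 33.4 and 47.0 CPM in wild type, with deletion values of 43.2 and 41.0. Both deletion libraries lay between the wild-type ones. Its log2 change was 0.07 with an interval from −0.56 to 0.69 (edgeR adjusted p = 0.950), and it was the 1 member with a positive value, at −0.16 without wild-type replicate 1. snu13 (chromosome 1, positions 2040860 to 2041514, minus strand) measured 82.5 and 110 CPM in wild type, with deletion values of 78.0 and 109. In each strain replicate 2 was the higher, by 0.41 and 0.48 on the log2 scale, so the libraries of snu13 split by replicate number and not by strain. Its log2 change was −0.04 with an interval from −0.72 to 0.65 (edgeR adjusted p = 0.977).

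In the box H/ACA group all 3 log2 changes were negative. nhp2 (chromosome 1, positions 4772002 to 4773217, minus strand) measured 399 and 453 CPM in wild type, with deletion values of 339 and 319. Its strains did not overlap, with a log2 change of −0.37 (standard error 0.29) and an interval from −1.06 to 0.32 (edgeR adjusted p = 0.730), and with 1 library left out it ran from −0.47 to −0.28. cbf5, the pseudouridine synthase gene (chromosome 1, positions 5140322 to 5142190, plus strand), measured 42.7 and 54.7 CPM in wild type, with deletion values of 38.6 and 41.2. The lower wild-type library lay just above the higher deletion library. The log2 change of cbf5 was −0.29 with an interval from −0.87 to 0.30 (edgeR adjusted p = 0.765), and it was −0.10 without wild-type replicate 2. gar1 (chromosome 2, positions 3283347 to 3284486, plus strand) measured 7.74 and 10.14 CPM in wild type, with deletion values of 8.41 and 8.42. The deletion libraries of gar1 lay between the wild-type ones. Its counts were the lowest of the 7, at 179 and 86 reads for wild type against 295 and 100 for the deletion, and 86 reads have a 95% Poisson interval of 68.8 to 106. Its log2 change was −0.08 with an interval from −0.79 to 0.63 (edgeR adjusted p = 0.950).

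**Figure D2:**
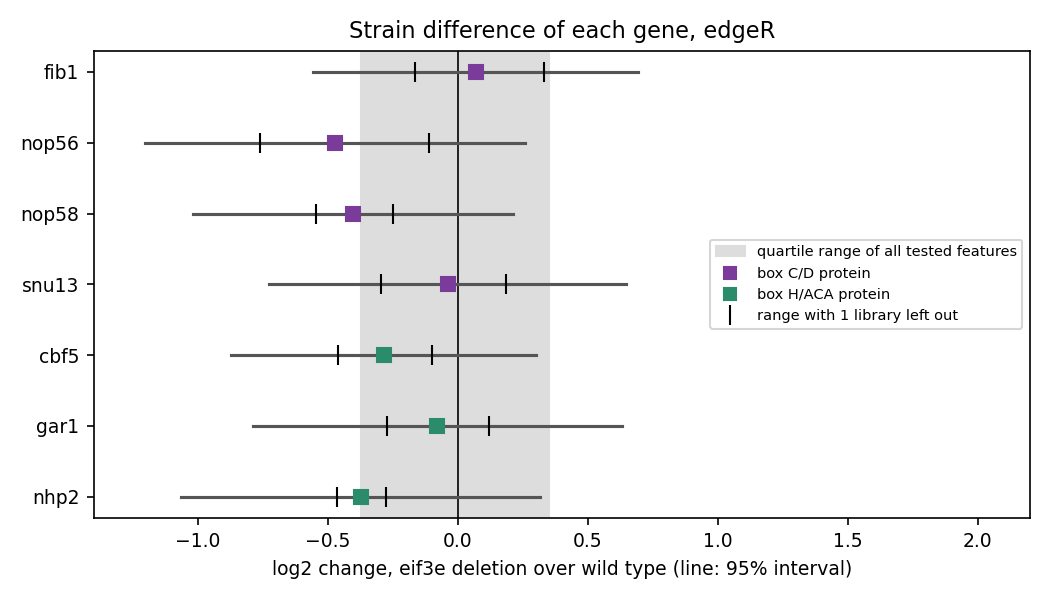
Log2 change of each gene, eif3e deletion over wild type, as squares with edgeR's 95% interval as a line; ticks mark the lowest and highest value with 1 library left out, and the grey band spans the quartiles of all 5915 tested features, from −0.37 to 0.35. All 7 intervals include 0, and nop56 and nop58 lie below the band, with nhp2 just inside its lower edge.

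The intervals bound what these libraries allow. For nop56 they run from 0.434 to 1.20 times the wild-type level, and for fib1 from 0.681 to 1.62 times. 20.3% of all tested features had a lower log2 change than nop56, 23.5% a lower one than nop58, 25.02% than nhp2 and 29.6% than cbf5. gar1, snu13 and fib1 stood at 44.0%, 47.0% and 54.9%.

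The members differed among themselves in how the wild-type libraries compared. nop56 and nop58 were lower in wild-type replicate 2 than in replicate 1, by a log2 difference of −0.66 and −0.30. The other 5 were higher in replicate 2, from 0.18 for nhp2 to 0.49 for fib1. Between the deletion replicates the difference was 0.48 for snu13 and ran from −0.19 for nop56 to 0.10 for cbf5 among the other 6. In the authors' deposited table each gene has a chi-square over the 4 libraries with 3 degrees of freedom, from 24.6 for gar1 to 2188 for nop56. It counts differences between replicates as well as between strains and is not a test of the strain.

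Levels were compared between genes per kilobase of deposited transcript, as TMM-normalized CPM per kilobase. The order was the same in all 4 libraries: nhp2, snu13, nop56, nop58, fib1, cbf5, gar1. nhp2 stood at 350 ± 31.3 in wild type and 270 ± 11.3 in the deletion (SD, n = 2), and gar1 at 8.82 ± 1.67 and 8.30 ± 0.00572; the near-equal deletion values of gar1 are the closeness of 2 numbers and no measure of precision. Partners in one particle thus spanned a wide range, the highest gene lying 43.0 and 37.3 times above the lowest in wild type, and 33.6 and 31.6 times in the deletion. snu13 stood at 190 ± 38.0 and 185 ± 43.5, nop56 at 106 ± 33.6 and 76.5 ± 7.11, and nop58 at 83.6 ± 12.3 and 63.2 ± 1.30. fib1 stood at 30.7 ± 7.35 and 32.1 ± 1.17, and cbf5 at 26.1 ± 4.53 and 21.4 ± 1.00. Across the wild-type libraries the values of nop56 and nop58 overlapped, as did those of fib1 and cbf5, although within each library nop56 lay above nop58 and fib1 above cbf5. Among 4785 protein-coding features tested, 99.1% had a lower mean level per kilobase than nhp2, 98.5% than snu13 and 66.1% than gar1.

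**Figure D3:**
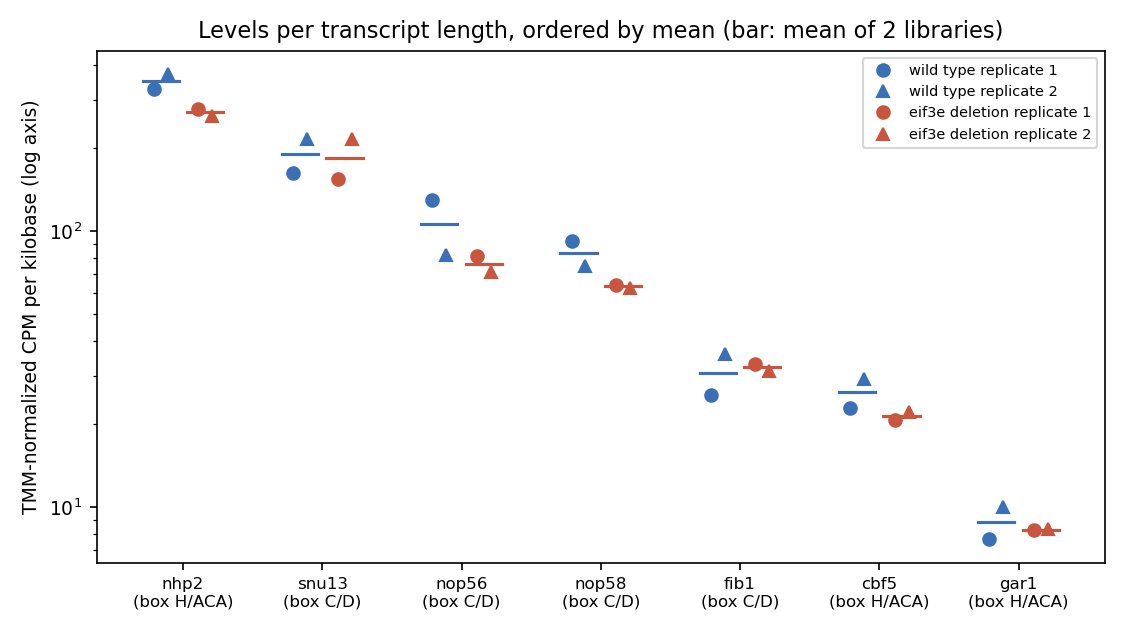
TMM-normalized CPM per kilobase of the 7 genes on a log axis, one point per library (circles replicate 1, triangles replicate 2), with a bar at the mean of the 2 libraries of a strain. The order from nhp2 to gar1 is the same in all 4 libraries, and nop56 has the wider wild-type spread of the 2 scaffold genes.

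Ratios of levels per kilobase within a library do not depend on the library scaling. nop56 stood at 1.41 and 1.10 times nop58 in wild type and at 1.27 and 1.15 times in the deletion. Relative to fib1, nop56 stood at 5.08 and 2.29 times in wild type and 2.47 and 2.28 times in the deletion, with wild-type replicate 1 apart from the other 3 libraries. nhp2 stood at 14.4 and 12.7 times cbf5 in wild type and 13.5 and 11.9 times in the deletion. The strains overlapped in each of these 3 ratios. nop58 stood at 3.61 and 2.08 times fib1 in wild type, with deletion values of 1.95 and 1.99 that both lay below. cbf5 stood at 2.99 and 2.93 times gar1 in wild type, with deletion values of 2.49 and 2.66 that both lay below. For nhp2 over gar1 the ratios were 43.0 and 37.3 in wild type, with deletion values of 33.6 and 31.6, also both below. The strains overlapped for snu13 over fib1, at 6.40 and 6.04 against 4.68 and 6.89. They also overlapped for nhp2 over snu13, at 2.01 and 1.72 against 1.80 and 1.22. For nop58 over fib1 the nearest values of the strains were 2.08 and 1.99. In replicate 2 gar1 had 86 reads in wild type and 100 in the deletion. Their Poisson intervals ran from 68.8 to 106 and from 81.4 to 122. How often such ratios separate for other gene pairs was not counted. Whether any of these separations exceeds counting error was not tested.

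Of the 7 genes, nop58, gar1 and snu13 have introns in RefSeq's annotation, 2, 2 and 1 of them, and the junction RPKM that the authors deposited was above 0 for these 3 genes alone. The snu13 intron is shown because it lies at the junction with the highest RPKM among the members, at chr1:2041296-2041445 on the minus strand of ASM294v3, between the first and second exon, with its first 6 and last 3 bases, at the splice sites, in capitals.
snu13 intron: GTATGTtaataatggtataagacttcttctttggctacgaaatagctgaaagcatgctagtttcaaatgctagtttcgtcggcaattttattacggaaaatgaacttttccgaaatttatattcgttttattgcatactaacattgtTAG

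This intron is 150 bases long, against 41 and 68 bases for those of nop58 and 70 and 56 bases for those of gar1. snu13 had a junction RPKM of 11.7 and 10.99 in wild type and 15.1 and 9.96 in the deletion, with both strains overlapping. nop58 had 1.36 and 0.432 in wild type and 1.33 and 0.461 in the deletion, the replicates of a strain differing more than the strains. gar1 had 0.620 and 1.02 in wild type and 0 and 0.446 in the deletion, on few reads. The RPKM of reads incompatible with the transcript was 0 for all 7 genes in all 4 libraries.

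Noncoding features on the opposite strand of members held few reads; whether the counting used strand is not given in the labels. SPNCRNA.1051, which spans cbf5 on the other strand over all 1869 bases, had 6 reads in wild-type replicate 1 and 0 in the other 3 libraries. SPNCRNA.1590, across 664 bases of gar1, had 5 and 2 reads for wild type against 7 and 6 for the deletion. fib1 overlaps snr1 by 14 bases and gar1 overlaps SPBC20F10.02c by 51 bases at their ends.

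Other genes of the same pathway were grouped by role. Their counts stand against 49.9% of all tested features with a negative log2 change, 21.4% with both deletion libraries below wild type and 20.1% with both above. At an unadjusted edgeR p under 0.05, 314 of the 5915 features (5.31%) were lower and 284 higher. Of 4785 protein-coding features, 2247 had a negative log2 change, 925 lay below in both libraries and 1041 above. At that unadjusted p, 172 of these were lower and 231 higher. Of 9 genes of snoRNP assembly and the remaining core, 5 had a negative log2 change, 0 had both deletion libraries below wild type and 1 had both above. Their median was −0.06. nop10, the fourth H/ACA core protein gene, measured 123.1 and 92.4 CPM in wild type, with deletion values of 126 and 52.9, with deletion replicate 1 the highest and deletion replicate 2 the lowest of the 4. rvb1 and rvb2, ATPase genes of the assembly machinery, had log2 changes of −0.06 and −0.06. tgs1, a cap methyltransferase gene that acts on small RNAs, was the 1 gene with both deletion libraries above, at 1.51 and 1.06 CPM against 6.41 and 3.70 CPM (edgeR adjusted p = 0.294), and is named after its values were seen.

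Of 34 genes of the U3 snoRNP and small-subunit processome, which cuts the 18S rRNA out of its precursor, 32 were negative. Both deletion libraries lay below wild type for 19 of the 34 and above for 1, with a median log2 change of −0.36. pwp2 measured 212 and 170 CPM in wild type, with deletion values of 129 and 120, dip2 had a log2 change of −0.55 and utp4 one of −0.14. Of 26 genes of large-subunit assembly and nucleolin, 25 were negative, 20 lay below and 1 above, with a median of −0.67. The nucleolin gene gar2 measured 253 and 117 CPM in wild type, with deletion values of 60.3 and 90.1, a log2 change of −1.302 (standard error 0.42). rlp7 had a log2 change of −1.06 and tif6 one of −0.19. Of 15 genes of RNA polymerase I, which makes the rRNA precursor, and its factors, 14 were negative. In both libraries 10 lay below and 0 above, with a median of −0.27. nuc1, its largest subunit gene, had a log2 change of −0.27, ker1 one of −0.68 and rpa43 one of −0.26. In these 4 lists edgeR called 0 of 84 genes at an adjusted p under 0.05, with 17 lower and 1 higher at an unadjusted p under 0.05. pwp2, dip2, rlp7, gar2, rvb1, rvb2, tgs1 and rpa43 overlap a feature on the opposite strand, and rlp7, ker1 and rpa43 one on the same strand, so that their reads may be shared.

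**Figure D4:**
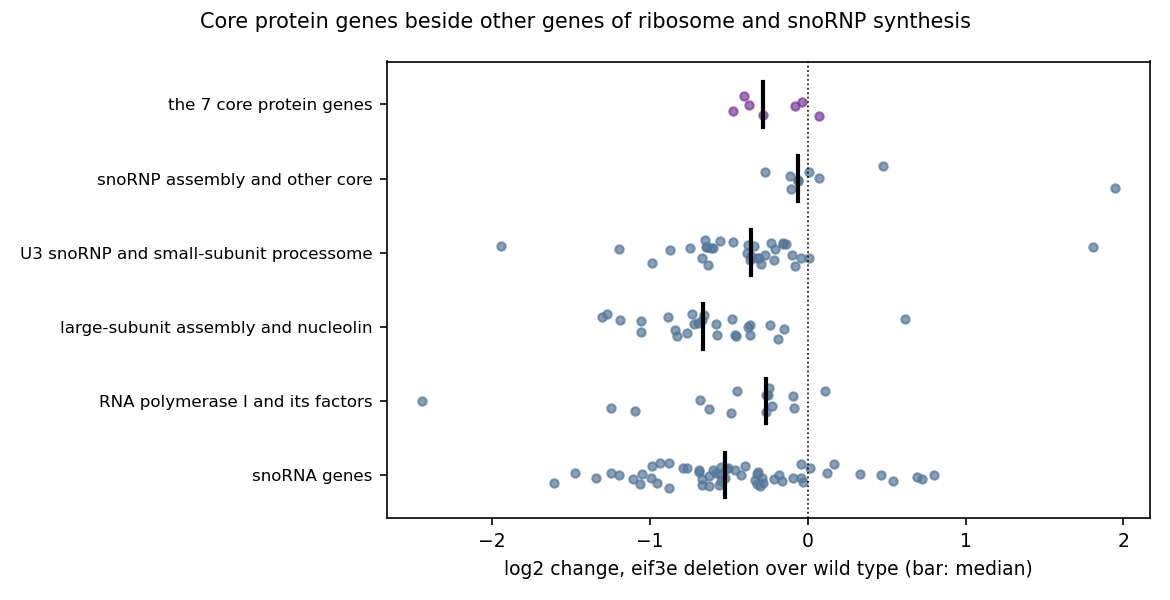
Log2 change of each gene, eif3e deletion over wild type, one point per gene, with the median of each list as a bar. The 7 core protein genes have their median at −0.29, between assembly factors at −0.06 and large-subunit assembly genes at −0.67.

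The snoRNA genes, taken as all features of that RefSeq gene type, were tested for 57 of 59. Both deletion libraries lay below wild type for 34 and above for 4, against 21.4% and 20.1% of all features, and the median log2 change was −0.53. edgeR called 0, with 14 lower and 1 higher at an unadjusted p under 0.05. Of all 5915 features, 314 were lower and 284 higher at that p. By level per kilobase the leading ones were snu32, snR30 and snoZ8, with log2 changes of −0.03, −0.30 and −0.69. Of the 57, 36 overlap another feature on the same strand, snR30 and snoZ8 included, and these hold 23 of the 34. Some lie in a common host, as snoZ3, snoZ4, snoZ5, snoZ7 and snoZ8 do in SPNCRNA.659, and some host transcripts are counted beside the snoRNA they contain, so the 57 are not separate features and their reads may be shared.

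Centred over the 4 libraries in log2 CPM, the mean profile of the 7 genes was 0.05 and 0.17 in wild-type replicates 1 and 2, and −0.12 and −0.09 in the deletion. Among 1354 other protein-coding features with a mean of at least 20 CPM, the closest profiles by Euclidean distance over the 4 libraries were those of she9, rex1, exo8, cki3 and tif51, at distances from 0.0158 to 0.0391 log2 units. tif51, which encodes translation factor eIF5A, measured 2100 and 2292 CPM in wild type, with deletion values of 1841 and 1948. The members themselves lay farther from their own mean, from 0.180 for nhp2 to 0.610 for nop56, so the mean profile is not that of any 1 of them.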

How the data were processed

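Total RNA of 4 libraries, depleted of rRNA, was read with SOLiD 4 chemistry according to the labels' protocols. Bowtie 1.1.0, TopHat 1.4.1, SAMtools and Partek 6.0 appear, with no role, in the submitters' processing notes. A genome build is not named there. The authors deposited estimated counts per feature, not normalized, of which 89.6% to 91.9% were whole within 1e-06, and, per the file headers, total, junction and incompatible RPKM values. A p-value and a chi-square score per feature were also deposited by the authors; 99.5% of the nonzero p matched 3 degrees of freedom within 1%. No column of values was left without a sample.

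Counts were rounded and tested with edgeR 4.0.16 (R 4.3.3): filterByExpr, TMM (factors 0.712 to 1.32), glmQLFit and glmQLFTest, two-sided, strain as the only term, Benjamini-Hochberg adjustment over 5915 of 6808 features, threshold 0.05. The standard error is the log2 change over the root of F. DESeq2 1.42.0, limma 3.58.1 on voom values and on log2(RPKM + 1) or log2(RPKM + 0.1), other scalings, no filter, the replicate number as a block and leaving out each library were alternatives. The edgeR step was run on counts simulated at a single common dispersion of 0.111 with no replicate effect. That setting is simpler than these data, so no conclusion on the 7 genes is drawn from it. Names, gene types and sequences came from RefSeq's ASM294v3, which matched 6636 features (97.5%), 7 of 7 members among them; 99.3% of these share a start or end with it. Proteins were aligned globally with Biopython 1.88 (BLOSUM62, gap costs 11 and 1, free ends).

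The members and lists were chosen with earlier results of these data known. Listed symbols without a match in RefSeq's table are left out (2 of 11, 5 of 39, 4 of 30 and 3 of 18). Named beside the members were int6 and its nearest features, the 3 genes of each list with the highest level per kilobase and any called gene of a list, and the 5 closest profiles.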

Additional observations from a re-analysis of the deposited data

How the results depend on the processing

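None of the 7 genes was called in any of the 12 alternatives, where their adjusted p ran from 0.339 to 0.9998 (edgeR, DESeq2, limma). The log2 changes of nop56, nop58, nhp2 and cbf5 kept their sign throughout. That of fib1 turned to −0.16 without wild-type replicate 1 and rose to 0.33 without wild-type replicate 2, and was −0.0849 and −0.0893 on log2(RPKM + 1) and log2(RPKM + 0.1), scales on which the median of all features itself moved to −0.12 and −0.17. That of snu13 ran from −0.29 to 0.19 and that of gar1 from −0.27 to 0.12 with 1 library left out.

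Over all features the count of calls depended on the setting. Higher and lower calls numbered 15 and 5 with no filter, 48 and 32 with DESeq2, 11 and 35 on log2(RPKM + 1), 18 and 51 on log2(RPKM + 0.1), and, with 1 library left out, 0 to 70 and 0 to 172. The cause was not tested; where a strain is down to 1 library, that library is assumed to vary like those of the other strain. Under the replicate block, edgeR's calls numbered 88 higher and 105 lower with 0 members, and nop56, nop58 and nhp2 had log2 changes of −0.44, −0.40 and −0.37 at unadjusted p of 0.0648, 0.0779 and 0.0957. The titles give replicate 1 of both strains one prefix and replicate 2 of both another, without saying what the prefix marks. The protein-coding share follows it (17.4% and 16.2% against 12.0% and 10.3%), as do the TMM factors (1.32 and 1.24 against 0.855 and 0.712), and the differences between replicates 1 and 2 correlated at 0.238 between the strains over 5915 features. The pairing was not taken as established, and the fit without it is the one reported.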
